A study of Homo sapiens with 30 samples.

Results

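Banhasasim-tang at 500 µg/mL was set against the same formula at 100 µg/mL, with 2 libraries at each dose. These 4 libraries were chosen by their labels from the 30 libraries of the series, and the purpose was to describe what the highest dose adds to, or reverses from, the middle dose. RNA sequencing was done on SW1783, an established human astrocytoma cell line, exposed for 24 h to ethanol extracts of 4 multi-herb formulas of Korean medicine used for the digestive tract. Each Banhasasim-tang group received the extract at 500, 100 or 20 µg/mL, with 2 libraries a dose, labelled replicates 2 and 3. The 3 vehicle libraries received DMSO, for which the sample labels and the design text give different concentrations. Sayeok-tang and Bojungikgi-tang, each with 3 libraries at 500 and 3 at 100 µg/mL, served for comparison, and Yijung-tang had 1 library a dose. For extracts too toxic at the top dose the design text allows a lower one, but the labels here give 500 µg/mL. All cells came from 1 line, so the groups share its genotype. Separate cultures are not named in the labels, and the tests therefore rest on differences among libraries that may be technical.

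Banhasasim-tang is traditionally made of pinellia tuber, scutellaria root, coptis rhizome, dried ginger, ginseng, licorice and jujube. When cells lack amino acids or accumulate misfolded protein, kinases of the integrated stress response phosphorylate the translation factor eIF2alpha, which slows protein synthesis while favouring translation of the transcription factor ATF4. ATF4 raises genes for amino acid supply and tRNA charging, and with prolonged stress the factor CHOP, encoded by DDIT3. The factor NRF2 controls antioxidant genes, NF-kB controls inflammatory cytokines, and SRF and YAP link gene expression to the actin cytoskeleton.

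Libraries of Banhasasim-tang held 37.55 M to 58.6 M counts (M for mega) assigned to genes, within 28.01 M to 59.9 M for the whole series. Levels are given in CPM, the share of a library's counts multiplied by 1 M and scaled by the trimmed mean of M values, and differences as log2 fold changes. An adjusted p under 0.05 by edgeR's quasi-likelihood test with Benjamini-Hochberg adjustment over 19632 tested genes is termed a call, and each value after ± is a standard error of the log2 fold change. One measure of library composition did not follow dose. Counts at 3 identifiers in 18S ribosomal RNA loci were 510 and 1687 CPM at 500 µg/mL, 247 and 587 at 100 µg/mL and 805 and 500 at 20 µg/mL. None of the 5 structural RNAs listed was called, and the part of this RNA in the results below was not tested beyond a fit with the 18S level as a covariate. The library names set Banhasasim-tang and Yijung-tang apart from the other formulas and from vehicle. What those names stand for is not given. That grouping and the difference of Banhasasim-tang from Sayeok-tang, Bojungikgi-tang and vehicle therefore cannot be told apart. Yijung-tang shares the kind of name but has 1 library a dose. All 3 doses of Banhasasim-tang carry the same kind of name.

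The cells matched the astrocyte label only in part. SOX9, a glial transcription factor, stood at 50.2 CPM in both libraries at 500 µg/mL and at 60.7 and 62.4 at 100 µg/mL. The astrocyte filament gene GFAP reached at most 0.166 CPM and the calcium-binding protein gene S100B at most 0.156 CPM in these 4 libraries, and the water channel gene AQP4 and the aldehyde dehydrogenase gene ALDH1L1 were too low to be tested. In bulk RNA, fewer cells of a type and less RNA per cell cannot be told apart.

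Raising the dose from 100 to 500 µg/mL (the upper step) changed 6118 genes, 3040 higher and 3078 lower. That is 31.2% of the tested genes, with 15.5% higher and 15.7% lower. Upper-step counts in the gene lists below are to be read against these shares. The change from 20 to 100 µg/mL (the lower step) called 1296 genes, 714 higher and 582 lower, which is 6.60% of those tested. Changes of at least 2-fold among called genes numbered 313 higher and 350 lower in the upper step, against 59 and 11 in the lower step. The lower step had 3.64% of genes higher and 2.96% lower. Both steps share the 100 µg/mL libraries, whose error enters them with opposite sign, so 500 against 20 µg/mL is given beside them where it matters. That contrast called 8572 genes (43.7%). Scaling by library size alone turned the lower step into 362 genes higher and 2019 lower. Leaving out 1 library lowered its count to 691 and 658 without replicate 2 or 3 of 100 µg/mL, and to 656 and 662 without replicate 2 or 3 of 20 µg/mL.

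Most of what the upper step changed had not been called in the lower step. Such added genes numbered 5030, or 82.2% of the upper-step calls, with 2454 higher and 2576 lower. A further 1075 genes (17.6%) continued in the direction of the lower step. Genes called in opposite directions in the 2 steps numbered 13, or 0.0662% of the tested genes. A call in one step and none in the other does not show that the steps differ, so the difference between the steps was tested itself. It was called for 888 genes (4.52%), of which 294 had the more positive change in the upper step (1.50%) and 594 the more negative (3.03%). Among the added genes, 622 carried such a call in the direction of the upper step, and among the continued genes 223 did, while 17 continued genes, all higher in both steps, rose less in the upper step than in the lower. Scaling by library size alone gave 757 more positive and 328 more negative step differences. Without replicate 2 or 3 of 100 µg/mL, 300 and 328 genes were called for the step difference.

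**Figure D1:**
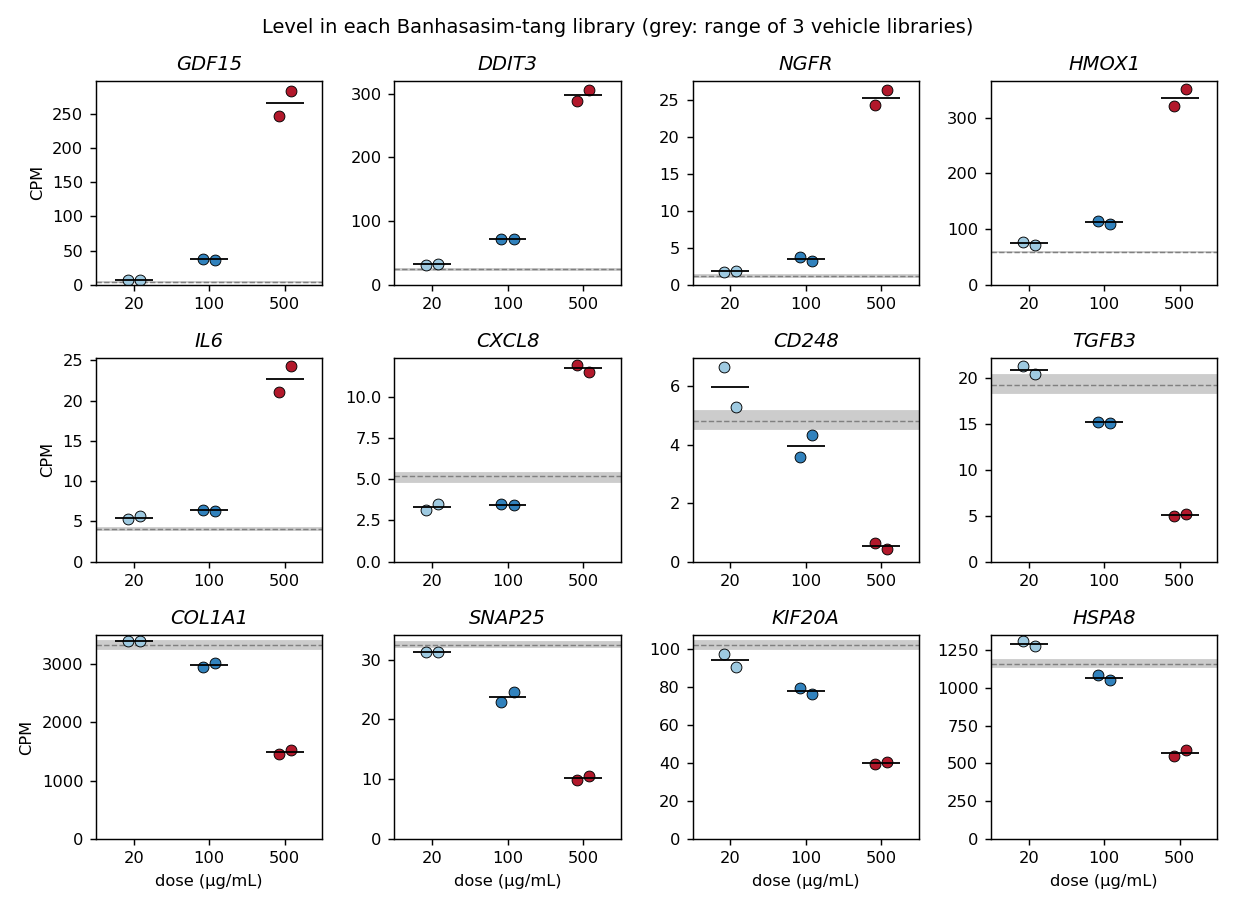
Level of 12 genes in CPM (y axis, from 0) in each of the 6 Banhasasim-tang libraries by dose in µg/mL (x axis); points are libraries, horizontal bars means of 2, the grey band the range of 3 vehicle libraries and the dashed line their mean. The 500 µg/mL libraries of NGFR, at 24.3 and 26.3 CPM, and of IL6, at 21.1 and 24.2 CPM, lie far above all others, and those of CD248, at 0.625 and 0.422 CPM, far below.

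Large changes are ranked here among called genes that averaged 2 CPM or more at 500 or 100 µg/mL, and the largest rise was that of NGFR. It encodes the low-affinity neurotrophin receptor (ENSG00000064300, chromosome 17, 49495293 to 49515017, GRCh38). Its level was 24.3 and 26.3 CPM at 500 µg/mL, 3.79 and 3.16 at 100 µg/mL, 1.70 and 1.86 at 20 µg/mL and 1.08 to 1.29 in vehicle. Both libraries at 500 µg/mL stood far above those at the lower doses and in vehicle. The ranking required that the groups at 500 and 100 µg/mL do not overlap. They did not overlap in 99.95% of upper-step calls and 64.7% of all tested genes. Separation by dose, here and below, is therefore description and adds no support. The upper step was 2.86 ± 0.13 (adjusted p = 1.9e-15) and exceeded the lower step by 1.88 (adjusted p = 2.1e-05).

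GDF15 encodes a secreted hormone released by stressed cells (chromosome 19, 18374731 to 18389176). It measured 248 and 285 CPM at 500 µg/mL, 37.7 and 36.6 at 100 µg/mL, 6.80 and 6.79 at 20 µg/mL and 3.88 to 4.29 in vehicle. Its rise was steep in both steps, 2.84 ± 0.07 in the upper (adjusted p = 5.7e-21) and 2.45 ± 0.08 in the lower (adjusted p = 1.3e-17), and the difference between the steps was not called (0.39, adjusted p = 0.093). Other genes among the 12 highest started from a range of levels. The lysosomal membrane gene LAMP3 went from 0.762 and 0.975 CPM at 100 µg/mL to 5.29 and 5.18 at 500 µg/mL. The collagen receptor gene OSCAR went from 0.684 and 0.832 CPM to 4.49 and 4.48, and KCP, for a secreted BMP regulator, from 3.34 and 3.11 CPM to 18.2 and 19.3. THBD, which encodes the anticoagulant receptor thrombomodulin, rose from 11.7 and 10.8 CPM to 57.6 and 59.3, after 5.42 and 5.41 at 20 µg/mL. HKDC1, a hexokinase-like gene, rose from 8.63 and 9.01 CPM to 45.3 in both libraries. The keratin gene KRT16, the dimethylglycine dehydrogenase gene DMGDH and the proton pump subunit gene ATP6V0D2 completed the group with log2 fold changes of 2.44, 2.40 and 2.38. KRT16 has near-identical copies, so its level is uncertain.

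The largest fall by the same ranking was in CD248, which encodes endosialin, a membrane protein of stromal cells (chromosome 11, 66314487 to 66317044). It measured 0.625 and 0.422 CPM at 500 µg/mL, 3.58 and 4.35 at 100 µg/mL, 6.65 and 5.29 at 20 µg/mL and 4.53 to 5.15 in vehicle. Of these groups, only the highest dose fell below 1 CPM. The upper step was -2.95 ± 0.18 (adjusted p = 5.6e-13), and it lay below the lower step by 2.34 on the log2 scale (adjusted p = 1.3e-06). The actin-binding gene SHROOM2 fell from 2.21 and 1.97 CPM to 0.370 and 0.402, and FAM13C from 8.50 and 8.06 CPM to 2.05 and 1.79. LGR6, a receptor for R-spondins that amplify Wnt signals, fell from 3.61 and 3.42 CPM to 0.881 and 0.763. EGLN3, a prolyl hydroxylase that marks hypoxia-inducible factors for destruction, fell from 6.13 and 4.92 CPM to 1.19 and 1.53. The netrin receptor gene UNC5C, the serotonin receptor gene HTR2A, the cytokine gene TNFSF15, the homeobox gene LHX9, IRAG1, RIPOR2 and MIR210HG, the host RNA of miR-210, also fell, by 1.67 to 1.91 on the log2 scale.

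Promoter windows are shown for genes of 3 lists, so that the letters known to be bound by their factors can be seen. Only members called in the upper step that hold the motif were eligible to be shown, largest change first. Further lists were searched and are counted below. Each window runs from 250 bases before to 50 bases after the annotated start, 5′ to 3′ on the gene's strand, from RefSeq on GRCh38.p14, and capitals mark matches on either strand. The first 3 belong to the ATF4 list and show the composite element of ATF4 and C/EBP proteins, TGATGNAA. It was found in 4 of 20 ATF4-list promoters present, and in 3.67% of all 27305 promoters. ASNS lies at chr7:97872359-97872658 on the minus strand, SLC3A2 at chr11:62881449-62881748 and CHAC1 at chr15:40953221-40953520, both on the plus strand.
ASNS: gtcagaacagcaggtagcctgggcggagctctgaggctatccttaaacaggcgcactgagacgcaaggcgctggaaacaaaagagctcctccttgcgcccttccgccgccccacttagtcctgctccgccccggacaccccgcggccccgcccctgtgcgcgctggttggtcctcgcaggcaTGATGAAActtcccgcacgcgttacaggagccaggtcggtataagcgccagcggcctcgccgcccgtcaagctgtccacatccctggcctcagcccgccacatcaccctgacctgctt
SLC3A2: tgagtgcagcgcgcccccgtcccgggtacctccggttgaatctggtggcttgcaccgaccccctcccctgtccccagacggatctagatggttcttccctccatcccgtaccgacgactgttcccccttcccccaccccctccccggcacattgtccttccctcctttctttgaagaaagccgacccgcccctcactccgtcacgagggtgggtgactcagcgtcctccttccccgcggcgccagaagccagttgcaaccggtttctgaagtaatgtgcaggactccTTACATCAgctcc
CHAC1: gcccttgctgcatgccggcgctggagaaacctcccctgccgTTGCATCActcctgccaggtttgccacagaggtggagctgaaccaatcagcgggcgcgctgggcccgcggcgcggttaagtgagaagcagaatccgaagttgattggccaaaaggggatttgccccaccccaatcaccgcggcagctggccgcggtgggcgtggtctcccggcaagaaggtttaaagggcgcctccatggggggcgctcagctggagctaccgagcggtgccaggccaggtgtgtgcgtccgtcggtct

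The next 3 belong to the inflammatory list and show the core letters of an NF-kB element, GGNNTTTCC, a motif added after the data were seen. It was found in 10 of 17 promoters of that list, against 6.26% of all promoters. Within the list it was found in 5 of 11 members called in the upper step and in 5 of 6 not called (CXCL1, CCL20, TNFAIP3, NFKBIA and NFKB1). The 3 shown are called genes that rose. CXCL3 lies at chr4:74038640-74038939 on the minus strand, IL6 at chr7:22726950-22727249 and CXCL8 at chr4:73740319-73740618, both on the plus strand.
CXCL3: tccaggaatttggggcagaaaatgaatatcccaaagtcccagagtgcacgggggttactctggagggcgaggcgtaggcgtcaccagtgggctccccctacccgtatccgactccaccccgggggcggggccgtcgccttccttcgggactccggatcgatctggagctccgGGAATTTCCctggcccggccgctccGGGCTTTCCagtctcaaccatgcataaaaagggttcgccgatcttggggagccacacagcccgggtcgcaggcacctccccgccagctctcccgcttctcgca
IL6: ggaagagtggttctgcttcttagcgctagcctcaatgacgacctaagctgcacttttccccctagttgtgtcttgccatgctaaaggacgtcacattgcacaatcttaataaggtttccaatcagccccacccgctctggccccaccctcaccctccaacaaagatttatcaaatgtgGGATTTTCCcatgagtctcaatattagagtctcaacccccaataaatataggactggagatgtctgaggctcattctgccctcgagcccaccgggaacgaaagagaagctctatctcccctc
CXCL8: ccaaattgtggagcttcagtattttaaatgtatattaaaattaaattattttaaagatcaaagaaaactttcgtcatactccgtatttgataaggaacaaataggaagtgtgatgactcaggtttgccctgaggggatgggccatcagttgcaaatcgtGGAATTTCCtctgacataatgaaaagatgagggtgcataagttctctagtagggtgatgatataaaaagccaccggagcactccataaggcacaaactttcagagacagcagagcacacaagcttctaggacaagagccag

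The last pair belongs to the mitosis list and shows the cell cycle homology region, TTTGAA. It was found in 13 of 20 promoters of that list, against 15.4% of all promoters. MKI67 lies at chr10:128126374-128126673 on the minus strand and CENPF at chr1:214602945-214603244 on the plus strand.
MKI67: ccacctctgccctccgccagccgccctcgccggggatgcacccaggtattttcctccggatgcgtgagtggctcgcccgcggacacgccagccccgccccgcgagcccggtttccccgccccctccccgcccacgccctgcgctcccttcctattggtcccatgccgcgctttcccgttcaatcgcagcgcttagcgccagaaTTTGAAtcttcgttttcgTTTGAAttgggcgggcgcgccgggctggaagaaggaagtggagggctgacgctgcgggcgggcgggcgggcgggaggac
CENPF: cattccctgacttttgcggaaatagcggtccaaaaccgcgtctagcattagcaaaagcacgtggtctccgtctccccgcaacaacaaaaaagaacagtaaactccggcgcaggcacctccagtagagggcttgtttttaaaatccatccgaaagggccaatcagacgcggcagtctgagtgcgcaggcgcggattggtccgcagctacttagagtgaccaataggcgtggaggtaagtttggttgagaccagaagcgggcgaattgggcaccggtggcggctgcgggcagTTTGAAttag

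A match is a description of letters, not evidence of binding. The antioxidant element core TGANNNNGC was found in 10 of 18 promoters of the NRF2 list and in 42.1% of all promoters, so its presence there sets the list little apart. GCGTG, the core of the aryl hydrocarbon receptor element, was found in 6 of 8 promoters of that pathway's list and 36.3% of all. Only 1 of those 8 genes was called in the upper step. The sterol element TCACNCCAC was in 1 of 18 promoters of the cholesterol list and 1.15% of all. CCAAT was in 17 of 20 promoters of the mitosis list and 35.7% of all.

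Most listed ATF4 targets rose in both steps. Of 25 listed ATF4 targets, 22 rose and 1 fell from 100 to 500 µg/mL, with a median log2 fold change of 0.42 against 0.01 over all tested genes. In the lower step 22 rose and none fell, with a median of 0.82 against 0.00. The difference between the steps was called for 11 of the 25, and for 10 of them the upper step was the smaller. ASNS, which makes asparagine, was at 337 and 335 CPM at 500 µg/mL, 178 and 175 at 100 µg/mL, 62.2 and 61.1 at 20 µg/mL and 45.9 to 49.2 in vehicle. Its libraries separated completely by dose, with a log2 fold change of 0.93 ± 0.07 in the upper step and 1.52 ± 0.07 in the lower. CHAC1, which degrades glutathione, showed the strongest flattening, with 37.3 and 40.5 CPM at 500 µg/mL, 31.5 and 31.8 at 100 µg/mL and 9.11 and 9.25 at 20 µg/mL. Its upper step was only 0.30 ± 0.09 (adjusted p = 0.011) after 1.78 in the lower step, a difference of -1.48 (adjusted p = 9.1e-07). The serine synthesis genes PSAT1 and PHGDH had upper steps of 0.42 and 0.38 after lower steps of 1.41 and 0.99. TRIB3, a pseudokinase that restrains ATF4, rose by 1.46 and 2.03 in the upper and lower step.

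DDIT3 was the exception, the only one of the 25 listed ATF4 targets with a larger upper step by that test. ATF3 and PPP1R15A, given below, belong to a separate list of integrated stress response regulators. It encodes CHOP, a factor linked to cell death under prolonged stress. It measured 289 and 306 CPM at 500 µg/mL, 71.7 and 71.1 at 100 µg/mL, 31.4 and 33.1 at 20 µg/mL and 23.4 to 24.0 in vehicle. Its libraries separated by dose, and its upper step of 2.06 ± 0.08 exceeded the lower by 0.91 (adjusted p = 0.00022). ATF3, a stress-induced repressor, measured 30.3 and 30.6 CPM at 500 µg/mL against 5.94 and 5.21 at 100 µg/mL and 1.72 and 2.44 at 20 µg/mL. The upper step of ATF3 was 2.45 ± 0.12 and exceeded the lower by 1.00 (adjusted p = 0.013). PPP1R15A, which encodes GADD34 and reverses eIF2alpha phosphorylation, went from 85.1 and 84.7 CPM at 100 µg/mL to 209 and 226 at 500 µg/mL, a larger rise than in the lower step (difference 0.75, adjusted p = 5.5e-06). The mRNAs of the 4 eIF2alpha kinases, EIF2AK1 to EIF2AK4, were not called and had log2 fold changes of 0.00 to 0.08. Of 13 tRNA synthetase genes, 12 rose in each step, with medians of 0.36 in the upper and 0.55 in the lower. AARS1, for alanine tRNA, had 564 and 581 CPM at 500 µg/mL against 347 and 348 at 100 µg/mL. Among 6 stress hormone genes tested, 4 rose in the upper step, including GDF15 and ADM2. The peptide hormone gene ADM2 stood at 37.4 and 39.0 CPM at 500 µg/mL, 16.8 in both libraries at 100 µg/mL and 3.70 and 4.33 at 20 µg/mL.

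Chaperone genes of the endoplasmic reticulum and listed heat shock genes moved in opposite directions. Of 10 genes of the mitochondrial unfolded protein response, 4 rose and 1 fell. Among 18 genes of endoplasmic reticulum folding and quality control, 17 rose and none fell, with a median of 0.49, and CANX alone was not called. HSPA5, the master chaperone BiP of that compartment, measured 13727 and 14274 CPM at 500 µg/mL, 5913 and 5918 at 100 µg/mL, 3947 and 3739 at 20 µg/mL and 3522 to 3616 in vehicle. Its 500 µg/mL libraries held more than all others, with an upper step of 1.24 ± 0.06 (adjusted p = 1.3e-15) that exceeded the lower step by 0.62. HERPUD1, which serves degradation of misfolded proteins, rose from 159 and 153 CPM to 386 and 384. The co-chaperone gene DNAJB9 rose by 1.02 and the secreted factor gene MANF by 0.61 on the log2 scale.

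Heat shock genes, mostly of the cytosol, fell. Of 15 listed, 11 fell and only HSF1, for the heat shock factor itself, rose. Their median was -0.34 in the upper step and -0.17 in the lower, where 6 fell. HSPA8, the constitutive HSP70, measured 550 and 587 CPM at 500 µg/mL, 1082 and 1055 at 100 µg/mL, 1311 and 1274 at 20 µg/mL and 1138 to 1184 in vehicle. Only the 500 µg/mL libraries lay far below vehicle, and the upper step of -0.91 ± 0.05 was steeper than the lower by 0.64 on the log2 scale (difference -0.64, adjusted p = 7.4e-06). The inducible HSPA1A went from 122 and 115 CPM to 55.4 and 59.1, and since it is nearly identical to HSPA1B the split of reads between both is uncertain. The small heat shock genes HSPB8 and HSPB1 fell by 0.80 and 0.74 on the log2 scale.

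**Figure D2:**
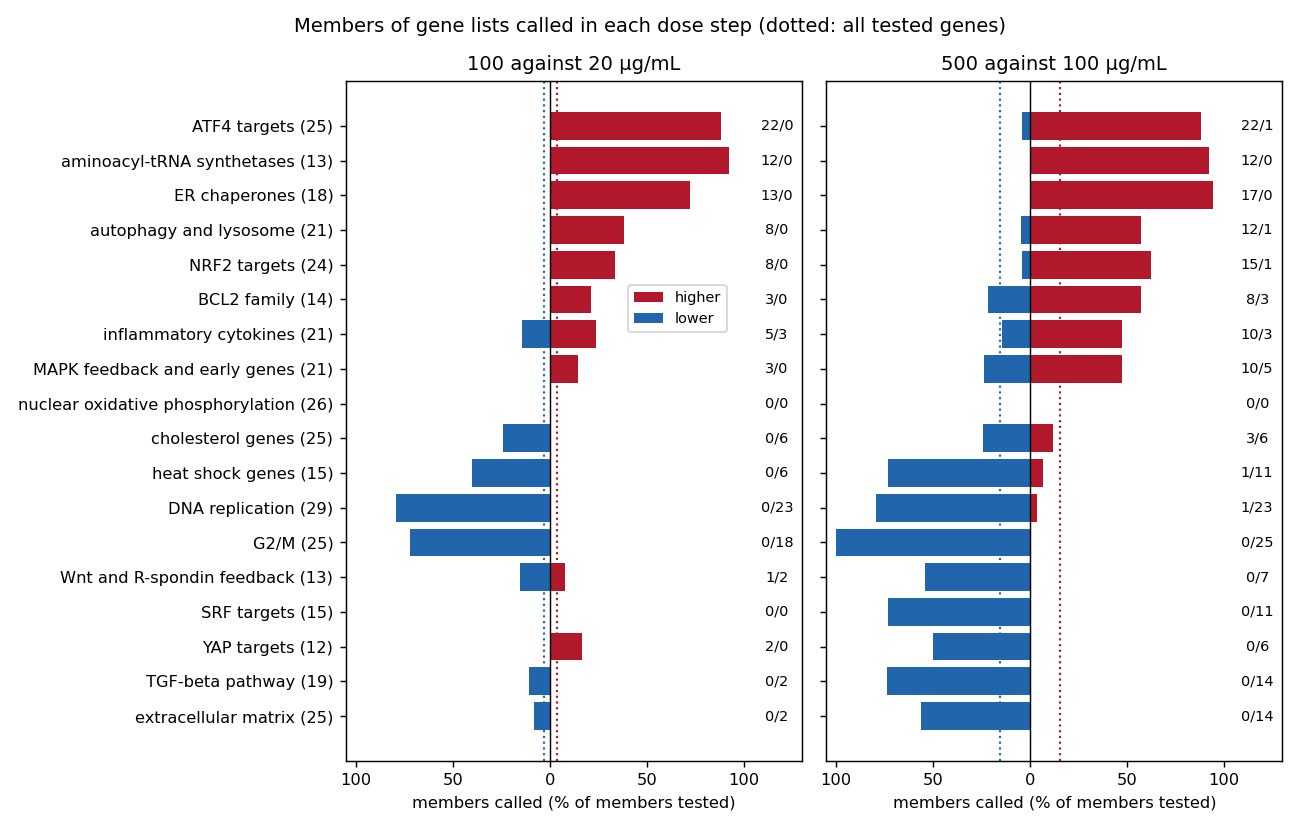
Percentage of the tested members of 18 gene lists called higher (red, to the right) or lower (blue, to the left) in the lower step (left panel) and upper step (right panel), with counts higher/lower at the right and the number tested after each name. Dotted lines mark the share of all tested genes called in that direction, 3.64% and 2.96% on the left and 15.5% and 15.7% on the right; SRF targets went from 0 called to 11 lower.

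Antioxidant genes rose more in the upper step. Of 24 NRF2 targets, 15 rose and 1 fell, with a median of 0.38, against 8 that rose in the lower step with a median of 0.08. The median of the lower step became -0.01 under scaling by library size alone. For 8 of the 24 the step difference was called, all with the larger rise in the upper step. HMOX1, which breaks down heme, measured 321 and 352 CPM at 500 µg/mL, 115 and 110 at 100 µg/mL and 76.6 and 71.8 at 20 µg/mL. Its libraries were ordered by dose, with an upper step of 1.59 ± 0.06 (adjusted p = 1.7e-16). GCLC, the catalytic enzyme of glutathione synthesis, rose from 40.0 and 40.1 CPM to 111 and 104, and SRXN1, sulfiredoxin, from 98.2 and 96.4 CPM to 206 and 191. The ferritin genes FTH1 and FTL rose by 1.11 and 1.01, and FTH1 has processed copies that could take some of its reads. Of 11 genes of the aryl hydrocarbon receptor pathway, 1 rose, NQO1, which is shared with the NRF2 list, and none fell. CYP1A1 and CYP1B1, its usual indicators, had log2 fold changes of -0.26 and -0.12 that were not called. In autophagy and lysosome genes, 12 of 21 rose and 1 fell, with a median of 0.17. The cargo receptor gene SQSTM1 measured 1427 and 1520 CPM at 500 µg/mL against 852 and 830 at 100 µg/mL, while TFEB, for the factor that drives lysosome genes, fell by 0.47.

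A group of cytokine genes rose mainly between 100 and 500 µg/mL. Of 21 inflammatory genes tested, 10 rose and 3 fell in the upper step, with a median of 0.57. In the lower step 5 rose and 3 fell, with a median of 0.06 that became -0.03 under scaling by library size alone. IL6, for a secreted cytokine that signals through gp130, measured 21.1 and 24.2 CPM at 500 µg/mL, 6.41 and 6.30 at 100 µg/mL, 5.29 and 5.61 at 20 µg/mL and 3.98 to 4.20 in vehicle. The highest dose stood alone, with an upper step of 1.84 ± 0.10 (adjusted p = 8.6e-14) and a lower step of 0.22 that was not called (adjusted p = 0.3). The difference between the steps was 1.61 (adjusted p = 3.1e-06). CXCL8, a neutrophil attractant, measured 11.9 and 11.5 CPM at 500 µg/mL, 3.50 and 3.42 at 100 µg/mL, 3.15 and 3.50 at 20 µg/mL and 4.84 to 5.37 in vehicle. It thus lay below vehicle at the lower doses and above it at 500 µg/mL, with an upper step of 1.76 ± 0.14 that exceeded the lower by 1.69 (adjusted p = 8.1e-05). CXCL3 and CXCL2, related neutrophil attractants with similar sequences, rose by 2.45 and 1.48, CXCL3 to 3.24 and 3.39 CPM from 0.488 and 0.737. IL1A, an alarm cytokine, rose from 1.47 and 1.28 CPM to 4.72 and 4.80, and LIF, of the IL6 family, from 26.1 and 27.4 CPM to 39.9 and 44.9.

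Other genes of the inflammatory list did not move in that direction. PTGS2, which makes prostaglandins, went from 57.5 and 61.9 CPM to 46.8 and 43.9 (upper step -0.40 ± 0.10, adjusted p = 0.0025). IL11 fell from 63.8 and 59.7 CPM to 34.9 and 34.0. TNFSF15, also of this list, had its largest fall, with an upper step of -1.70. The NF-kB feedback inhibitors NFKBIA and TNFAIP3 had log2 fold changes of -0.10 and 0.07 that were not called, whereas the NF-kB subunit genes RELB and NFKB2 rose by 0.76 and 0.57. Among 19 interferon response genes, 4 rose and 5 fell, with a median of 0.04, where 15.5% of all tested genes rose and 15.7% fell. Summed levels of the 4 myeloid markers tested, of 8 listed, were 213 to 243 CPM at 500 µg/mL, 220 to 221 at 100 µg/mL and 152 to 162 in vehicle. Most of that sum was CD68, a lysosomal gene, at 208 to 239 CPM at 500 µg/mL and 208 to 209 at 100 µg/mL, which was not called. Of the 4 myeloid markers tested, CSF1R and PTPRC fell, and AIF1 was at 0 in these libraries. The part of such cells in the cytokine levels was not tested.

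Feedback genes of the MAPK pathway rose in part. Of 21 listed, 10 rose and 5 fell in the upper step, with a median of 0.34, and 3 rose in the lower step. DUSP5, a phosphatase of nuclear ERK, measured 46.1 and 47.7 CPM at 500 µg/mL, 16.2 and 17.8 at 100 µg/mL and 12.6 and 14.0 at 20 µg/mL. The upper step of DUSP5 was 1.47 ± 0.07 and exceeded the lower by 1.11 (adjusted p = 1.1e-06). DUSP6, SPRY2 and SPRY4, further inhibitors of the pathway, rose by 0.59, 0.70 and 0.58. The immediate-early factor gene FOS, by contrast, fell from 2.29 and 2.26 CPM to 1.11 and 1.23, and EGR1, EGR3 and JUNB fell by 0.26, 0.76 and 0.32.

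Genes that set the threshold for apoptosis changed at the top dose in both directions of function. Of 14 BCL2 family genes, 8 rose and 3 fell, with a median of 0.23, after 3 had risen in the lower step. BCL2L11, which encodes the killer protein BIM, measured 12.4 CPM in both libraries at 500 µg/mL, 6.58 and 7.30 at 100 µg/mL and 8.42 and 7.80 at 20 µg/mL. Its 500 µg/mL libraries stood above the others, with an upper step of 0.84 ± 0.08 after -0.23 in the lower step (not called, adjusted p = 0.1), a difference of 1.07 (adjusted p = 1.8e-05). BBC3 and PMAIP1, for the killers PUMA and NOXA, rose by 1.12 and 0.68, and HRK reached 1.36 and 1.12 CPM from 0.137 and 0.143. The protective genes BCL2, BCL2L1 and MCL1 rose as well, by 0.45, 0.31 and 0.23, and the killer genes BID, BOK and BMF fell by 0.35 to 0.45. The death receptor gene TNFRSF10B rose from 79.6 and 79.5 CPM to 190 and 191. Of 24 p53 targets, 10 rose and 4 fell, with a median of 0.16. CDKN1A, a cell cycle inhibitor, measured 30.6 and 35.3 CPM at 500 µg/mL against 22.5 and 21.5 at 100 µg/mL, and MDM2 rose by 0.18.

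Cytoskeletal SRF targets fell in the upper step after no call in the lower. Of 15 listed, 11 fell and none rose, with a median of -0.41, and the step difference was called for 9, all more negative in the upper step. In the lower step none was called, with a median of 0.06 that became -0.03 under scaling by library size alone. ACTA2, smooth muscle actin, measured 62.6 and 66.8 CPM at 500 µg/mL, 118 and 120 at 100 µg/mL, 108 in both at 20 µg/mL and 87.3 to 88.5 in vehicle. It lay above vehicle at the lower doses and below it at the highest, with an upper step of -0.88 ± 0.06 and a step difference of -1.02 (adjusted p = 5.1e-07). TAGLN and MYL9, contractile proteins, fell by 0.57 and 0.45, and ACTB, cytoplasmic actin, from 9471 and 9290 CPM to 6624 and 7486. Of 12 YAP targets, 6 fell and none rose, whereas 2 had risen in the lower step. CCN2, a matricellular growth factor, went from 105 and 124 CPM to 74.9 and 72.8, and CCN1 was not called (-0.02, adjusted p = 0.9).

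Genes of TGF-beta signalling and of the extracellular matrix fell with them. Of 19 TGF-beta pathway genes, 14 fell and none rose, with a median of -0.32 against -0.06 in the lower step, where 2 fell. The ligand gene TGFB3 measured 4.97 and 5.20 CPM at 500 µg/mL, 15.2 and 15.1 at 100 µg/mL and 21.3 and 20.4 at 20 µg/mL. Its libraries separated by dose, with an upper step of -1.57 ± 0.11 (adjusted p = 5.4e-12) that was steeper than the lower by 1.11 on the log2 scale (difference -1.11, adjusted p = 9e-05). The inhibitory SMAD6 fell by 0.96, ID2, a repressor of differentiation factors, by 0.94, and the feedback gene PMEPA1 by 0.65. Of 25 matrix genes, 14 fell and none rose, with a median of -0.22. COL1A1, the main chain of type I collagen, measured 1453 and 1518 CPM at 500 µg/mL, 2942 and 3018 at 100 µg/mL and 3398 and 3395 at 20 µg/mL. COL1A1 fell by 1.00 ± 0.05 on the log2 scale in the upper step and by 0.19 in the lower. THBS1, thrombospondin, fell from 1289 and 1336 CPM to 515 and 517. FN1, POSTN and TNC, other matrix proteins, had changes of -0.20, -0.11 and -0.13 that were not called. Of 13 genes of Wnt and R-spondin feedback, 7 fell and none rose, LGR6 by the most. Of 11 growth factor receptor genes, 6 fell, including PDGFRA and PDGFRB by 0.77 and 0.69, and NGFR alone rose.

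Proliferation genes fell further. Each of the 25 genes of mitosis fell in the upper step, with a median of -0.47, after 18 had fallen in the lower step with a median of -0.24. KIF20A, a kinesin of cytokinesis, measured 39.2 and 40.3 CPM at 500 µg/mL, 79.5 and 76.3 at 100 µg/mL and 97.4 and 90.4 at 20 µg/mL. Its libraries separated by dose, with an upper step of -0.97 ± 0.05 and a step difference of -0.70 (adjusted p = 6.2e-06). MKI67, the common proliferation marker, went from 178 and 186 CPM to 97.4 and 88.7. Of 29 DNA replication genes, 23 fell and 1 rose in the upper step, and 23 fell in the lower, with medians of -0.32 and -0.24, and the step difference was called for 2. CCNE2, a cyclin of S phase entry, fell from 20.5 and 20.8 CPM to 12.2 and 12.1, and CDC6, a licensing factor, was the one that rose, by 0.21. MYC and the inhibitor gene CDKN2B rose by 0.61 and 0.59, and the inhibitor gene CDKN2C fell by 0.86. Of 11 histone genes tested, 6 fell and none rose.

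Metabolic genes split. Of 22 glycolysis genes, 11 fell and 5 rose, with a median of -0.15. LDHA, which makes lactate, went from 1478 and 1437 CPM to 888 and 874, and ALDOC and PGK1 fell by 0.78 and 0.53. HKDC1 and HK2, which trap glucose, rose by 2.36 and 0.51. Of 19 hypoxia genes, 7 rose, led by NDRG1 from 52.6 and 48.9 CPM to 138 and 153, and 8 fell, led by EGLN3. Of 25 cholesterol genes, 3 rose and 6 fell, with a median of -0.04. Of all tested genes 15.5% rose and 15.7% fell, so these counts set the list little apart. The lipid droplet gene PLIN2 rose from 88.5 and 90.0 CPM to 234 and 254, and the cholesterol exporters ABCG1 and ABCA1 rose by 1.55 and 0.84. IRS2, which couples insulin receptors to PI3 kinase, rose from 44.2 and 43.6 CPM to 120 and 113, while IRS1 fell by 0.63. None of 26 nuclear genes of oxidative phosphorylation was called in either step, with an upper-step median of 0.02, in a comparison that called 31.2% of all genes. In 500 against 20 µg/mL, 2 of these 26 were higher and 5 lower, where 22.3% of all tested genes were higher and 21.3% lower. Of 28 ribosomal protein genes, 3 rose and none fell, where 15.5% of all tested genes rose and 15.7% fell.

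Reversal of a lower-step change was rare. TXNIP, a glucose-responsive inhibitor of thioredoxin (chromosome 1, 145992435 to 145996600), measured 5.86 and 5.00 CPM at 500 µg/mL, 2.21 and 2.45 at 100 µg/mL, 4.67 and 5.02 at 20 µg/mL and 8.44 to 10.7 in vehicle. The 100 µg/mL libraries were the lowest, and those at 500 µg/mL were back among those at 20 µg/mL. Its lower step was -1.06 ± 0.15 (adjusted p = 1.2e-05) and its upper step 1.22 ± 0.15 (adjusted p = 2.2e-07), while 500 against 20 µg/mL gave 0.16 (adjusted p = 0.35). PHKG2, a phosphorylase kinase subunit, followed the same course at much smaller size. It had 24.1 and 24.6 CPM at 500 µg/mL, 20.8 and 20.3 at 100 µg/mL and 25.1 and 23.1 at 20 µg/mL. The upper step of PHKG2 was only 0.24 (adjusted p = 0.0062).

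Of the 13 reversed genes, 9 rose and then fell. The integrin gene ITGA5 measured 1301 and 1388 CPM at 500 µg/mL, 1615 and 1518 at 100 µg/mL and 1351 and 1340 at 20 µg/mL. KRT81, a hair keratin with near-identical relatives, measured 172 and 197, 249 and 232, and 166 and 163 CPM at those doses. The scaffold gene MAGI1, the aldehyde dehydrogenase gene ALDH3B1 and ECM2, a matrix protein gene, had upper steps of -0.36, -0.36 and -0.47 after lower steps of 0.20, 0.35 and 0.88. In 1 of the 13, MAGI1, the change from 20 to 500 µg/mL was also called in the direction of the upper step (-0.16, adjusted p = 0.023). The call rests on the shared 100 µg/mL libraries in both steps. The count was 57 under scaling by library size alone, 71 with no filter on low counts, 36 with only the compared groups in the fit and 8 without replicate 3 of 20 µg/mL.

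**Figure D3:**
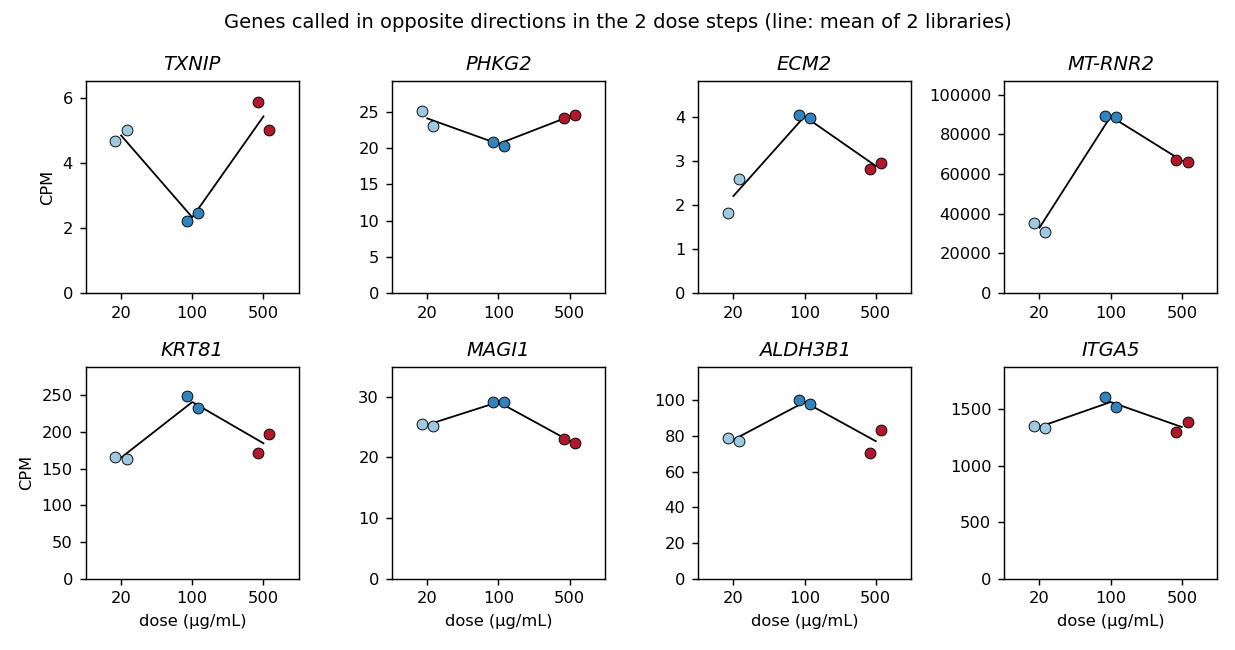
Level in CPM (y axes, from 0) of 8 genes called in opposite directions in the lower and upper step, by dose in µg/mL; points are the 2 libraries of each dose and lines join their means. TXNIP and PHKG2 are lowest at 100 µg/mL, and the other 6 are highest there.

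Mitochondrial ribosomal RNA was also among the reversed genes. The 16S ribosomal RNA gene MT-RNR2 (mitochondrial genome, 1671 to 3229) measured 67280 and 66305 CPM at 500 µg/mL, 89338 and 88923 at 100 µg/mL, 35362 and 30666 at 20 µg/mL and 8562 to 9209 in vehicle. Every Banhasasim-tang library lay above all others in the series, with the maximum at 100 µg/mL. The lower step was 1.43 ± 0.07 (adjusted p = 3.8e-14) and the upper step -0.42 ± 0.07 (adjusted p = 3e-05). MT-RNR1, the 12S partner, which was chosen after its values were seen, measured 16231 and 17464 CPM at 500 µg/mL and 16307 and 17432 at 100 µg/mL, with no call in the upper step (adjusted p = 1). Both RNAs together took 7.70% to 7.82% of all counts at 500 µg/mL, 9.69% to 9.71% at 100 µg/mL, 3.44% to 3.93% at 20 µg/mL and 0.942% to 1.00% in vehicle. In all libraries of the other 3 formulas the share was 1.41% to 1.64%. Yijung-tang, with library names like those of Banhasasim-tang, had 1.45% at 500, 1.48% at 100 and 1.45% at 20 µg/mL. The 13 mitochondrial messenger RNAs did not share this course, at 4.22% to 4.92% of counts at 500 µg/mL, 3.88% to 4.74% at 100 µg/mL and 5.44% to 6.12% at 20 µg/mL. Of these 13, 2 rose in the upper step and 2 fell in the lower. The part of this RNA in the other results was not tested beyond removal of its counts before scaling. Such removal cannot show whether what raised this RNA also changed other genes. Leaving out all mitochondrially encoded genes, an alternative chosen after seeing the data, left 6090 upper-step calls, 2914 higher and 3176 lower.

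**Figure D4:**
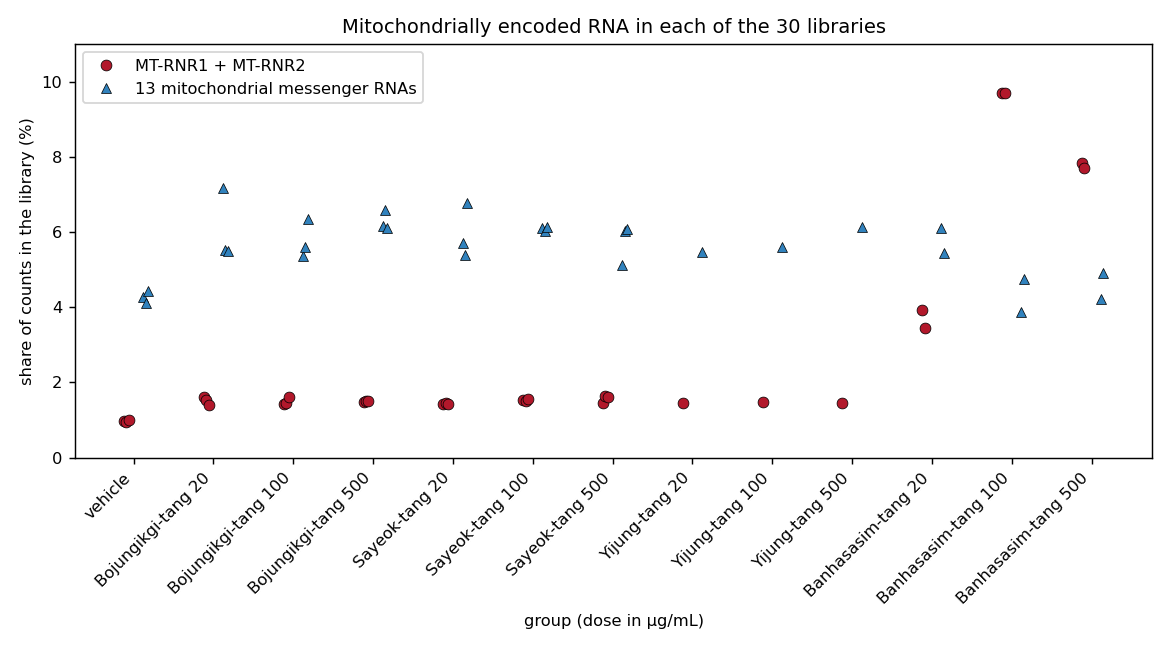
Share of each library's counts in % (y axis) from the 2 mitochondrial ribosomal RNAs (red circles) and the 13 mitochondrial messenger RNAs (blue triangles) in all 30 libraries, by group and dose in µg/mL. The ribosomal share is 3.44% or more in every Banhasasim-tang library and 1.64% or less elsewhere, and is highest at 100 µg/mL.

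The same dose step was then compared with that of the other formulas that have replicates. From 100 to 500 µg/mL, Sayeok-tang changed 2878 genes (14.7%, of which 6.63% of tested genes were higher and 8.03% lower). Bojungikgi-tang changed 900 (4.58%, with 1.94% higher and 2.65% lower). The upper step of Banhasasim-tang differed from that of Sayeok-tang for 2524 genes (12.9%), 1177 more positive (6.00%) and 1347 more negative (6.86%). It differed from that of Bojungikgi-tang for 3547 genes (18.1%), 1693 more positive (8.62%) and 1854 more negative (9.44%). These contrasts share the Banhasasim-tang libraries. Equal doses in µg/mL do not imply equal amounts of any constituent.

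Steps of cytokine and heat shock genes differed from those of both formulas. The step of IL6 exceeded that of Sayeok-tang by 1.82 (adjusted p = 2.9e-10) and that of Bojungikgi-tang by 1.41 (adjusted p = 1.4e-08), where the steps themselves were 0.02 and 0.43. For CXCL8, Sayeok-tang fell by 0.50, and the difference was 2.26 (adjusted p = 1.5e-09), against 1.66 for Bojungikgi-tang. Of the 21 inflammatory genes, 9 had a more positive and 1 a more negative step than in Sayeok-tang, and 8 and 2 than in Bojungikgi-tang. HSPA8 stepped down by 0.77 more than in Sayeok-tang (difference -0.77, adjusted p = 6.5e-10) and by 0.74 more than in Bojungikgi-tang (difference -0.74, adjusted p = 7.6e-10). Of the 15 heat shock genes, 8 and 9 had a more negative step than in these formulas. NGFR exceeded both, by 2.10 and 2.67, and CD248 fell below both, by differences of -2.06 and -2.91. TXNIP fell in the other formulas, by 1.08 in Sayeok-tang and 0.55 in Bojungikgi-tang, so that the differences were 2.30 and 1.76.

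For other groups the other formulas moved as well, to differing extents. All 25 mitosis genes also fell in Sayeok-tang, with a median of -0.45 against -0.47, and the difference was called for 4. In Bojungikgi-tang 6 fell, and 20 had a more negative step in Banhasasim-tang. The SRF targets fell in all 3, 14 of 15 in each of the other formulas, and the step of ACTA2 differed from Sayeok-tang by -0.19 (adjusted p = 0.13) and from Bojungikgi-tang by -0.26 (adjusted p = 0.024). Among NRF2 targets, 19 of 24 rose in each of the other formulas, and the step of HMOX1 was smaller than in Sayeok-tang by 0.43 (difference -0.43, adjusted p = 0.00057). It was 0.02 above that of Bojungikgi-tang (adjusted p = 0.93). Of 25 ATF4 targets, 10 had a smaller step than in Sayeok-tang and 3 a larger, CHAC1 with -1.38 (adjusted p = 7.3e-09) among the former and DDIT3 with 1.04 (adjusted p = 1.7e-07) among the latter. Against Bojungikgi-tang, 14 of the 25 had a larger step and none a smaller, with a median difference of 0.30. Of 18 endoplasmic reticulum genes, 9 had a larger step than in Sayeok-tang and 14 than in Bojungikgi-tang, and none a smaller. Of 25 cholesterol genes, 11 rose and none fell in Sayeok-tang, and 10 had a more negative step in Banhasasim-tang than there. In Bojungikgi-tang none rose and 3 fell, and 4 had a more positive and 4 a more negative step in Banhasasim-tang.

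**Figure D5:**
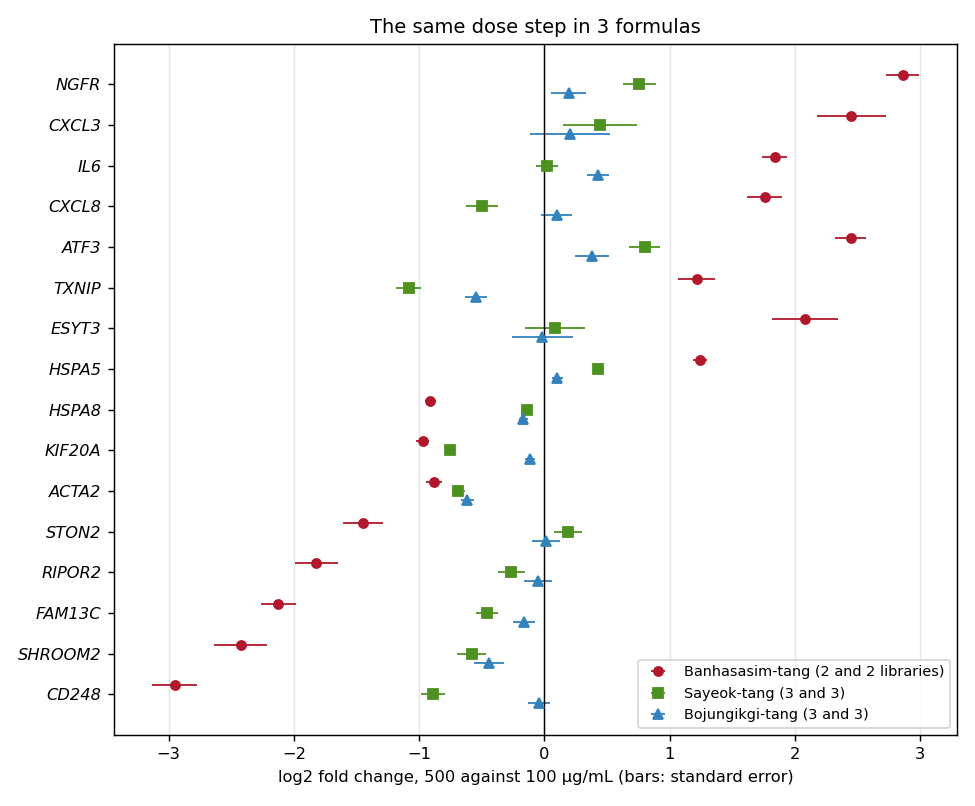
Log2 fold change from 100 to 500 µg/mL (x axis, 0 marked) of 16 genes in Banhasasim-tang (red circles, 2 against 2 libraries), Sayeok-tang (green squares) and Bojungikgi-tang (blue triangles, both 3 against 3), with bars of 1 standard error. IL6 stands at 1.84, 0.02 and 0.43 in that order and CD248 at -2.95, -0.89 and -0.04, whereas ACTA2 lies at -0.88, -0.69 and -0.62.

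Astrocyte markers fell in part. Of 10 astrocyte markers tested, 6 fell and none rose in the upper step, with a median of -0.47. The sum of the 10 tested was 5044 to 5451 CPM at 500 µg/mL, 5141 to 5328 at 100 µg/mL and 4562 to 4939 in vehicle. Nearly all of that sum was VIM, for the filament vimentin, at 4771 to 5175 CPM at 500 µg/mL and 4784 to 4968 at 100 µg/mL, which was not called. GJA1, for a gap junction protein, fell from 202 CPM in both libraries to 153 to 154 CPM, and NES and ALDOC fell by 0.70 and 0.78 on the log2 scale. The glutamate transporter gene SLC1A3 fell from 20.0 and 19.4 CPM to 7.68 and 8.18. Of 7 neuron markers, 3 fell and 1 rose, and their sum went from 140 to 144 CPM to 98.8 to 104. SNAP25, a vesicle fusion protein, fell from 22.9 and 24.6 CPM to 9.81 and 10.5. MAP2 was the one that rose, to 12.8 to 13.4 CPM at 500 µg/mL from 9.01 to 9.26 at 100 µg/mL. SYT1 was not called, at 30.3 to 30.6 CPM against 29.3 to 29.9. Of 4 oligodendrocyte markers tested, 2 rose and 1 fell. MBP stood at 9.92 to 10.2 CPM at 500 µg/mL and 7.31 to 7.58 at 100 µg/mL. OLIG2 stood at 0.643 to 0.796 CPM against 0.0713 to 0.137. CNP fell, to 115 to 119 CPM at 500 µg/mL from 131 in both libraries at 100 µg/mL. MOG and SOX10 were at 0 in these libraries. Of 4 keratin genes tested, 1 fell, KRT18, from 178 and 169 CPM to 94.1 in both libraries.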

How the data were processed

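The authors deposited expected counts per gene from bulk RNA-seq of SW1783 cells, in 1 table of 30 libraries and 60675 genes. RSEM 1.3.3, STAR 2.7.3a, Trim Galore 0.6.5 and FastQC 0.11.9 appear in the submitters' processing notes, with hg38 and no order; the annotation release and the use of strand in counting are not given in the sources used here. Libraries were made with a directional kit, per the labels' protocols. Expected counts are shared among similar genes by a model, so values of near-identical genes (HSPA1A and HSPA1B, SERPINB3 and SERPINB4, keratins, CXCL1 to CXCL3, FTH1, MT-RNR2 with its nuclear copies, 18S loci) are uncertain.

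Expected counts were rounded to whole numbers, filtered with filterByExpr (19632 genes kept), scaled by TMM and fitted with edgeR 4.0.16 (quasi-likelihood, 13 group means, all 30 libraries) in R 4.3.3. P-values were Benjamini-Hochberg adjusted over all tested genes, with calls under 0.05. Standard errors are the log2 fold change divided by the square root of F, an approximation. CPM are TMM-scaled. DESeq2 1.42.0, other scalings and filters, a replicate block, 18S as a covariate and leaving out each library were alternatives. The test was tested on simulated data. Symbols matched 56558 identifiers (93.2%), and coordinates are from GENCODE release 29 on GRCh38. Promoters are from RefSeq.

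Genes were named by rule. The rankings required a call, a symbol, a mean of at least 2 CPM and groups that do not overlap. They gave the 12 highest and 12 lowest of the upper step and the most extreme of the other contrasts. Up to 4 called members per list were named without the conditions on level and overlap. Other list members may be named with values. The gene lists and the comparison were chosen with earlier results of these data known. Replicate numbers were not treated as pairs. The 2 libraries of each Banhasasim-tang dose differed by more than sampling noise.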

Additional observations from a re-analysis of the deposited data

Results flagged for a closer look

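The upper step of Banhasasim-tang differed from the same step of another formula, by a test of the difference itself (edgeR's quasi-likelihood test with Benjamini-Hochberg adjustment), for 2524 genes against Sayeok-tang and 3547 against Bojungikgi-tang. Against Sayeok-tang the most positive differences in log2 fold change were TXNIP at 2.30, CXCL8 at 2.26, NGFR at 2.10, CXCL3 at 2.00 and ESYT3, a lipid transfer protein gene, at 2.00. The most negative were CD248 at -2.06, SHROOM2 at -1.84, FAM13C at -1.66, STON2, an endocytosis adaptor gene, at -1.63 and RIPOR2 at -1.56. Against Bojungikgi-tang the most positive were NGFR at 2.67, RAET1E-AS1 at 2.58, OSCAR at 2.58, LAMP3 at 2.56 and KRT16 at 2.35. The most negative were CD248 at -2.91, SHROOM2 at -1.98, FAM13C at -1.96, RIPOR2 at -1.77 and UNC5C at -1.67. RAET1E-AS1, an antisense gene, stood at 4.58 and 1.10 CPM in the 500 µg/mL libraries and at 0.703 and 1.09 at 100 µg/mL, so that its value rests on 1 library.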

How the results depend on the processing

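The upper step held 5616 to 6570 calls under 9 alternatives that keep all its libraries, and 4512 to 4833 when 1 library was left out. The lower step, at 1296 calls, gave 2381 both under scaling by library size alone and with only the compared groups in the fit, and 656 to 691 without 1 library. The step difference, at 888, gave 300 to 709 without 1 library. Reversed genes, at 13, gave 57 under scaling by library size alone, 71 with no filter on low counts, 36 with only the compared groups, and 8 to 13 without 1 library. The causes were not tested. Differences from Sayeok-tang numbered 1701 to 2555 and from Bojungikgi-tang 2559 to 3326 without 1 library. Library size scaling moved the median step difference of all genes to 0.10. A replicate block gave 6269, 1387, 962, 2668, 3661 and 17 calls for the upper step, lower step, step difference, upper step minus Sayeok-tang, upper step minus Bojungikgi-tang and reversed genes, so it moved no count by over 1.5 times. Same-numbered libraries had correlated deviations of 0.02 (500 and 100 µg/mL), -0.13 (500 and 20) and 0.05 (100 and 20) over 13966 genes, so the numbers were not taken as pairs. Each dose had 2 libraries, which limits the precision of every value.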
